A study of Rattus norvegicus and Mus musculus with 14 samples.

Results

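Hippocalcin (Hpca), neurocalcin delta (Ncald), protein kinase C alpha (Prkca) and the beta 1 subunit of voltage-gated calcium channels (Cacnb1) are 4 genes of neuronal calcium handling. They were taken as every probe of the cDNA array whose single gene symbol in the platform annotation was one of these names. Each had 1 probe, so the 4 genes were 4 of 342 named genes and 4 of 1152 probes, and no second probe of any of them was there to compare.

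The study measured transcript abundance with 1 array per sample on 12 arrays of cultured rat embryonic cortical neurons and in cortex from 2 adult C57BL mice. The culture arrays fell into a MEK set and a NOS set, each with experiments 1 and 2. Every experiment had 1 control array (treated with a solution the labels abbreviate as CSS), 1 array of neurons given NMDA (the glutamate analogue after which its receptor class is named), and 1 array of neurons given NMDA with an inhibitor. In the MEK set this was PD98059, an inhibitor of the kinase MEK, and in the NOS set nitroarginine, an inhibitor of nitric oxide synthase. The mouse samples were 1 neuronal nitric oxide synthase (nNOS) knockout and 1 wild-type littermate. Doses, times and the knockout's allele were not given in the sources used here. Whether both arrays of a group stem from independent cultures is not stated. The p-values therefore reflect only how far these particular arrays differ, and that difference may be technical.

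An NMDA receptor that opens lets calcium into the neuron, and the 4 proteins stand at different steps of what follows. Voltage-gated channels open on depolarization and add to the calcium entry, and their beta subunits bring the pore-forming subunit to the membrane and set its gating. Hippocalcin and neurocalcin delta belong to the neuronal calcium sensor family, whose members bind calcium through EF-hands and expose a myristoyl group that takes them to membranes. Protein kinase C alpha is a conventional isoform, activated by calcium together with diacylglycerol, and phosphorylates many membrane and cytoskeletal proteins.

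Promoter sequence is shown for the genes of this group that the RefSeq table (GRCr8) held, Hpca and Prkca, because calcium entry through NMDA receptors acts on transcription in part through the factor CREB, whose site is the cAMP response element. Each line gives the 250 bases before the annotated start, on the minus strand, 5′ to 3′. Hpca lies at chr5:146748359-146748608 and Prkca at chr10:93787328-93787577. Capitals mark matches to the core of that element (TGACG or its reverse complement CGTCA) and to the GC box (GGGCGG or CCGCCC).
Hpca: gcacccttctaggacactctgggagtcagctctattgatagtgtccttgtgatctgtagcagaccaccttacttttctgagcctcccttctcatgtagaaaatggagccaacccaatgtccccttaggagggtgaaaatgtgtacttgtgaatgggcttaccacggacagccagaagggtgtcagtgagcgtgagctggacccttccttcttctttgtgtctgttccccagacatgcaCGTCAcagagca
Prkca: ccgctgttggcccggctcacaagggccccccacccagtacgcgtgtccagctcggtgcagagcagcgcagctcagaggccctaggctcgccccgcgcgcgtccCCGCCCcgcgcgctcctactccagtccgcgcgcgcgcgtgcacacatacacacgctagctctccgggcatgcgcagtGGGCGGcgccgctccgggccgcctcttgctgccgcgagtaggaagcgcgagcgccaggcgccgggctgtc
The Hpca window held 1 core, starting 12 bases before the start of the gene, and 0 GC boxes. The Prkca window held 0 cores and 2 GC boxes, starting 147 and 70 bases before the start. Neither held the full element TGACGTCA, whose letters include both forms of the core. Of 33469 rat windows of the same length, 18.2% held a core, 30.5% a GC box and 1.59% the full element. These are matches of letters and were not tested as sites.

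Each array was deposited as Z-scores. A value of 0 is the mean of all probes on that array, 1 unit is about 1 SD over probes, and no fold change can be derived. A level describes 1 probe across arrays and cannot be set against another probe's. Arrays within an experiment resembled each other closely (r across probes of 0.989 to 0.991 in NOS experiment 1, 0.894 to 0.937 in NOS experiment 2, and 0.971 to 0.995 among 5 arrays of the MEK set), but NOS experiment 1 and NOS experiment 2 correlated at only 0.454 to 0.617. NOS experiment 2 was the one that stood apart. The same 5 MEK arrays correlated with NOS experiment 1 at 0.848 to 0.894 and with NOS experiment 2 at 0.339 to 0.47. The control of NOS experiment 2 had an SD over probes of 0.857. The column of the MEK control of experiment 1 was moved down by 1 row, because its r with the median of the 11 other rat arrays was 0.104 as deposited and 0.83 after the move. Even so, its r with the rest of the MEK set was 0.858 to 0.867, and 75.6% of probes on it lay outside the range of those 5 arrays. Of the 16 neuronal marker genes listed for a check of the cell type, 4 were on the array (Mapt, Nefl, Stmn2 and Uchl1, on 5 probes), and Map2 and Rbfox3 were not among them. Their median percentiles within the rat arrays were 13.1 for Nefl, 42.5 for Stmn2, 54.3 for Mapt, and 79.8 and 94.2 for the probes of Uchl1, so the neuronal markers were not uniformly bright. Of the astrocyte markers, Gfap had median percentiles of 24.1 and 43.5 and Glul of 79.2. The microglial marker Csf1r, with 1 probe, was at 0.44 to 1.33 under NMDA and 0.36 to 0.84 in controls of the NOS set. In the MEK set it was at 0.37 to 0.48 under NMDA and 0.46 to 0.55 in controls. The ranges overlapped in both sets. The fibroblast marker Col1a2, with 2 probes, had median percentiles of 38.8 and 21.1. No oligodendrocyte or endothelial marker from the lists was on the array.

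Among the calcium sensors, Hpca varied in level across arrays of different treatments and experiments, though no treatment difference was called in the tests below. In the MEK set its Z-scores were 0.13 and 0.27 in the controls of experiments 1 and 2, 0.17 and 0.22 under NMDA, and -0.36 and 0.02 under NMDA with PD98059. Both PD98059 arrays lay below all 4 other arrays of that set, of which the control at 0.13 is that of the moved column. Against the NMDA arrays alone, ranges did not overlap for 23.3% of all probes. The share against all 4 was not computed. In the NOS set Hpca was at -0.76 and 0.34 in the controls, -0.91 and -0.58 under NMDA, and -0.81 and -0.11 under NMDA with nitroarginine. Within each NOS experiment the order was the same, with the control highest, NMDA lowest and nitroarginine between them, although the ranges of the groups overlapped because the experiments stood so far apart. In mouse cortex Hpca was at -0.82 in the wild type and -0.90 in the knockout.

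By group mean (± SD, n = 2 arrays), Hpca ran from 0.20 ± 0.10 in MEK controls and 0.19 ± 0.03 in MEK NMDA arrays, through -0.17 ± 0.27 with PD98059, -0.21 ± 0.78 in NOS controls and -0.46 ± 0.50 with nitroarginine, to -0.74 ± 0.23 in NOS NMDA arrays. Among neighbours in this order, MEK NMDA and PD98059 did not overlap, as for 23.3% of all probes, and all other neighbouring rat groups did.

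Ncald had the widest gap between the sets. It was at 0.63 and 1.23 in the MEK controls, 1.31 and 1.26 under NMDA, and 1.25 and 1.25 under NMDA with PD98059. In the NOS set it was at -0.43 and -0.11 in the controls, -0.55 and -0.76 under NMDA, and -0.47 and -0.76 under NMDA with nitroarginine. All 6 MEK arrays therefore lay above all 6 NOS arrays. The value of 0.63 is that of the moved column and lay 0.60 below the lowest of the other 5 MEK arrays, which spanned only 1.23 to 1.31. In mouse cortex Ncald was at -0.27 in the wild type and -0.22 in the knockout, within the range of the NOS cultures.

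Ncald's group means were 1.28 ± 0.04 (SD, n = 2) under NMDA in the MEK set, 1.25 ± 0.0029 with PD98059 and 0.93 ± 0.43 in MEK controls, and then -0.27 ± 0.23 in NOS controls, -0.61 ± 0.21 with nitroarginine and -0.66 ± 0.15 under NMDA in the NOS set. Of the neighbours in this order, only nitroarginine and NOS NMDA arrays overlapped, but the 3 MEK groups were apart by less than 0.02. Ranges of PD98059 and MEK NMDA arrays did not overlap for 23.3% of all probes. That share was not computed for the other neighbouring groups that were apart here.

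Prkca, the kinase, had the smallest range of the members over the rat arrays, from -0.81 to 0.07. It was at 0.07 and -0.66 in the MEK controls, -0.57 and -0.59 under NMDA, and -0.48 and -0.57 with PD98059. In the NOS set it was at -0.50 and -0.27 in the controls, -0.49 and -0.81 under NMDA, and -0.49 and -0.78 with nitroarginine. The value of 0.07 is again that of the moved column and lay 0.55 above the other 5 MEK arrays. Of all probes, 86.5% were closer to that range on the moved array than Prkca, and 88.9% were closer than Ncald. Without that array, the MEK values spanned only -0.66 to -0.48. Mouse cortex was at -0.08 in the wild type and -0.33 in the knockout.

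For Prkca the group means ran from -0.29 ± 0.51 (SD, n = 2) in MEK controls and -0.39 ± 0.16 in NOS controls, through -0.52 ± 0.06 with PD98059 and -0.58 ± 0.01 under NMDA in the MEK set, to -0.64 ± 0.21 with nitroarginine and -0.65 ± 0.23 under NMDA in the NOS set. Among neighbours in this order, only PD98059 and MEK NMDA arrays did not overlap, as for 23.3% of all probes. The lowest PD98059 value was -0.5651 and the highest MEK NMDA value -0.57.

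Cacnb1, the channel subunit, was nearly level in MEK experiments 1 and 2 and NOS experiment 1. It was at 0.73 and 0.46 in the MEK controls, 0.60 and 0.60 under NMDA, 0.64 and 0.59 with PD98059, and in NOS experiment 1 at 0.58, 0.59 and 0.67 in the control, NMDA and nitroarginine arrays. In NOS experiment 2 it was lower, at -0.43 in the control, 0.31 under NMDA and -0.25 with nitroarginine. The wild-type cortex was at -0.08 and the knockout at 0.33.

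The group means of Cacnb1 were 0.61 ± 0.04 (SD, n = 2) with PD98059, 0.60 ± 0.0004 under NMDA and 0.60 ± 0.19 in controls of the MEK set. In the NOS set they were 0.45 ± 0.20 under NMDA, 0.21 ± 0.65 with nitroarginine and 0.07 ± 0.72 in controls. All neighbouring groups in this order overlapped.

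**Figure D1:**
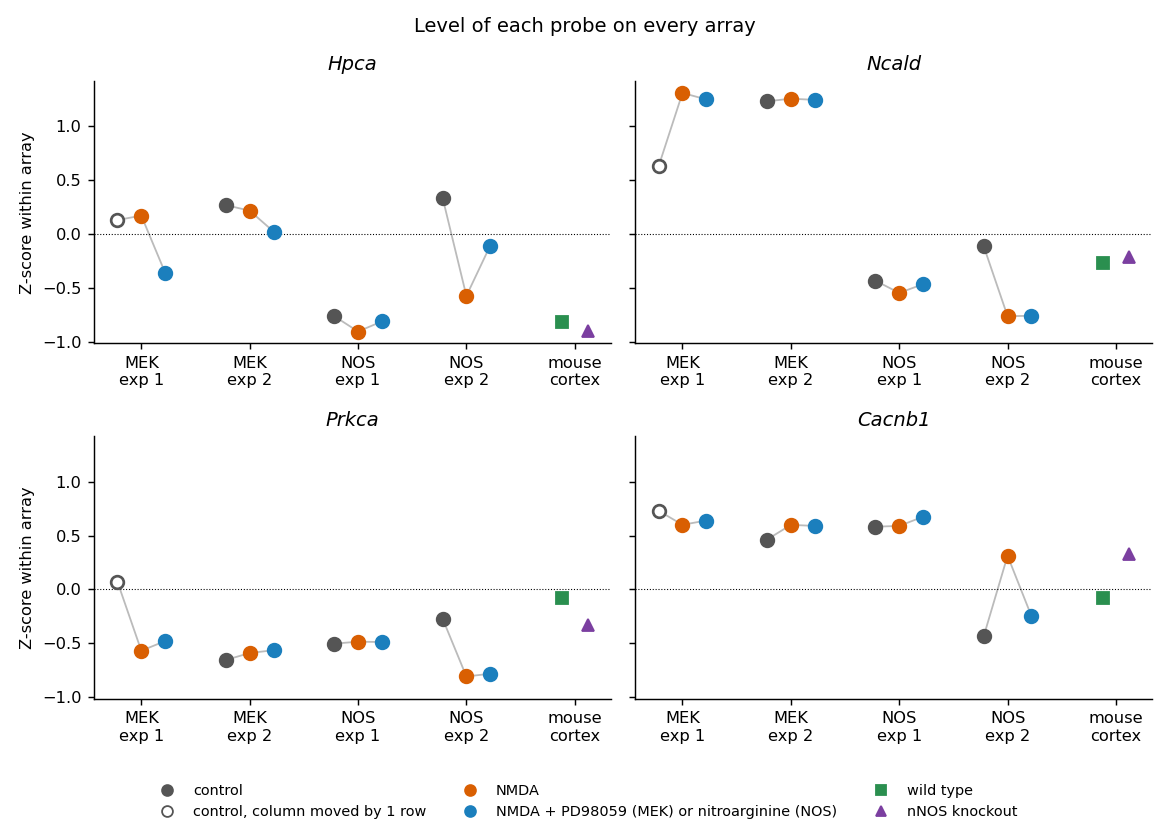
Z-score within the array (y axis) of each of the 4 probes on every array, by experiment (x axis), with a grey line joining the control, NMDA and inhibitor arrays of an experiment; the open circle is the control whose column was moved by 1 row. Ncald lies between 0.63 and 1.31 on the 6 MEK arrays and between -0.76 and -0.11 on the 6 NOS arrays, and Cacnb1 leaves its level of 0.46 to 0.73 only in NOS experiment 2 and in mouse cortex.

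The share of variation across the 12 rat arrays differed among the members. The set accounted for 93.0% of the sum of squares of Ncald, 38.1% of Hpca, 24.8% of Cacnb1 and 4.25% of Prkca, against a median of 36.0% over all probes. Experiment within a set accounted for 54.0% of Cacnb1, 34.8% of Hpca, 23.6% of Prkca and 0.62% of Ncald (median of all probes 36.4%). Treatment within a set accounted for 30.1% of Prkca, 19.5% of Hpca, 9.42% of Cacnb1 and 3.62% of Ncald (median 7.18%). For Prkca the treatment share includes the moved array, which was 1 of its 2 MEK controls. Ncald's mean was 1.15 over the MEK arrays and -0.51 over the NOS arrays, and 99.0% of probes had a smaller gap between the sets. Its ranges in the sets did not overlap, as for 26.8% of all probes, and those of the other 3 members did. Control arrays of both sets carry the same treatment in the labels, so the set and anything else that differed between the sets cannot be told apart. In cultured cells and tissue alike, fewer cells of a type and less RNA per cell cannot be told apart either.

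NMDA was compared with control to ask what receptor stimulation did to the cultures. In the NOS set the fitted difference was -0.53 Z units for Hpca (SE 0.38, 95% interval -1.39 to 0.33), -0.38 for Ncald (SE 0.26, interval -0.98 to 0.21) and -0.26 for Prkca (SE 0.28, interval -0.90 to 0.38). Cacnb1 differed the other way, by 0.38 (SE 0.39, interval -0.49 to 1.25). None passed, with adjusted p = 1 for each in limma with Benjamini-Hochberg adjustment over all probes. Over the 1152 probes limma made 0 calls (0%), with an unadjusted p under 0.05 for 2. The fit carries no block for experiment, so gaps between experiments count as spread in every comparison given here. Low counts of small p-values in it therefore do not show that effects were absent.

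The difference came mostly from NOS experiment 2. There Hpca was lower under NMDA by -0.91, Ncald by -0.65 and Prkca by -0.54, while Cacnb1 was higher by 0.75. In NOS experiment 1 the differences were -0.14 for Hpca, -0.11 for Ncald, 0.02 for Prkca and 0.0068 for Cacnb1. Differences of all probes were themselves wider in experiment 2 (SD 0.444) than in experiment 1 (SD 0.134). Hpca stood low in both, with 3.65% of probes below it in experiment 2 and 11.8% in experiment 1. Cacnb1 stood above 98.3% of probes in experiment 2 and above 56.2% in experiment 1. Only Ncald had both NMDA arrays below both controls, as 10.3% of all probes had ranges that did not overlap in this comparison. With the control of NOS experiment 2 left out, the fitted value was 0.02 for Hpca and -0.13 for Cacnb1, but that fit sets the control of experiment 1 against NMDA arrays of both experiments. The pair of experiment 1 alone gave the -0.14 and 0.0068 above.

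Probes that neighbour the members in the file's probe order had differences of the same sign as theirs in NOS experiment 2. The median NMDA difference of the 24 nearest probes was -0.56 around Ncald, -0.35 around Hpca, -0.29 around Prkca and 0.22 around Cacnb1; the median over all probes was 0.08. With a running median over 25 probes subtracted along that order, the fitted NMDA difference in the NOS set was 0.05 for Ncald and 0.02 for Prkca, while it was -0.55 for Hpca and 0.37 for Cacnb1. The summed Z-score of the 5 neuronal marker probes was also higher under NMDA in the NOS set, at 1.49 to 2.62 against 0.18 to 0.88 in controls, and that of the 3 astrocyte probes was 0.32 to 0.41 against -0.34 to 0.04. The part of probe position and of these markers in the members' differences was not tested.

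In the MEK set the fitted NMDA difference was 0.35 for Ncald (SE 0.26, interval -0.24 to 0.95) and -0.29 for Prkca (SE 0.28, interval -0.92 to 0.35). It was -0.0058 for Hpca (SE 0.38) and 0.0034 for Cacnb1 (SE 0.39). None passed (limma, adjusted p = 0.998 for each), and over the whole array limma made 0 calls (0%), with an unadjusted p under 0.05 for 16 probes. Ncald's and Prkca's values rest on the moved control. In experiment 1, which holds it, the differences were 0.68 for Ncald and -0.64 for Prkca. In experiment 2 they were 0.02 and 0.06, and those of Hpca and Cacnb1 were -0.05 and 0.14. The signs for Hpca and Ncald in experiment 2 turned with the scaling, to 0.06 for Hpca after median centring and to -0.20 for Ncald after quantile normalization. The median over all probes was 0.24 on that control array and 0.12 on its NMDA array. Both Ncald NMDA arrays lay above both controls, as ranges did not overlap for 44.4% of all probes. The neuronal marker sum was 1.62 to 1.80 under NMDA and -1.23 to 0.82 in controls, and that of the 2 fibroblast probes was -1.35 to -1.09 against -1.59 to -1.54. The part of either was not tested.

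**Figure D2:**
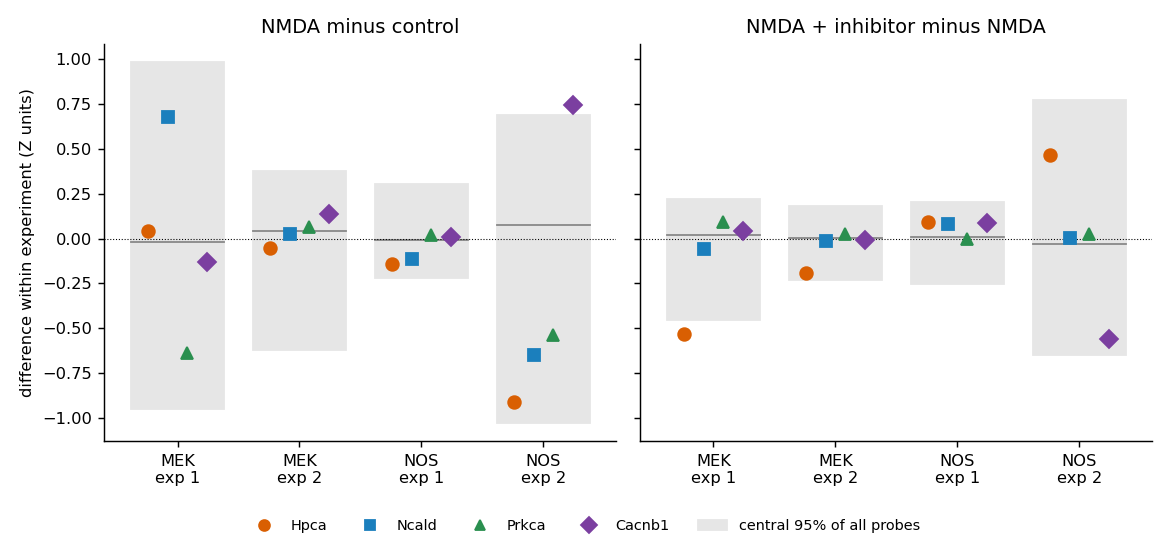
Difference within each experiment in Z units (y axis) for NMDA minus control (left) and for NMDA with inhibitor minus NMDA (right), by experiment (x axis); grey boxes span the central 95% of all probes and grey lines mark their median. Hpca is the lowest member for PD98059, at -0.53 and -0.19, and in NOS experiment 2 the members spread from -0.91 for Hpca to 0.75 for Cacnb1 under NMDA.

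Over both sets (n = 4 arrays each), the NMDA difference was -0.27 for Hpca (SE 0.27, interval -0.88 to 0.34), -0.27 for Prkca (SE 0.20), -0.01 for Ncald (SE 0.19) and 0.19 for Cacnb1 (SE 0.27). None passed (limma, adjusted p = 1 for each, with 0 calls and 11 probes at an unadjusted p under 0.05). The interaction, the NMDA difference in the NOS set minus that in the MEK set, was -0.73 for Ncald (SE 0.37, interval -1.58 to 0.11), -0.52 for Hpca (SE 0.54), 0.37 for Cacnb1 (SE 0.55) and 0.03 for Prkca (SE 0.40). It did not pass for any member (limma, adjusted p = 0.999 for each), with 0 calls over all probes and 4 at an unadjusted p under 0.05. Without the moved control, Ncald's interaction was -0.43.

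PD98059 with NMDA was compared with NMDA alone to ask what blocking MEK did to stimulated cultures. Hpca was lower with the inhibitor by -0.53 in experiment 1 and by -0.19 in experiment 2, and under every scaling tried. Only 1.65% and 3.99% of all probes were lower than it in those experiments, whose differences were narrow over all probes (SD 0.155 and 0.104). The moved column plays no part in these differences. The 24 nearest probes to Hpca had medians of 0.10 and 0.07, of the opposite sign. The neuronal marker sum was also lower with PD98059, at 1.02 to 1.46 against 1.62 to 1.80 under NMDA alone, and its part was not tested. The fitted difference was -0.36 (SE 0.38, interval -1.22 to 0.50), which did not pass (limma, adjusted p = 1).

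The other members hardly differed between PD98059 and NMDA alone. Ncald was at -0.06 and -0.01 in experiments 1 and 2, Prkca at 0.09 and 0.03, and Cacnb1 at 0.04 and -0.0097. Their fitted differences were -0.04 (interval -0.63 to 0.56), 0.06 (interval -0.58 to 0.69) and 0.02 (interval -0.86 to 0.89), so changes of about that width in either direction lie within the intervals. Ranges did not overlap for Hpca and Ncald, which were lower, and Prkca, which was higher, as for 23.3% of all probes. For Ncald and Prkca the groups were apart by less than 0.01. Limma called 0 probes (0%), and 0 had an unadjusted p under 0.05.

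Nitroarginine with NMDA was compared with NMDA alone to ask the same of nitric oxide synthase. Hpca was higher with the inhibitor, by 0.09 in experiment 1 and 0.47 in experiment 2, and the fitted difference was 0.28 (SE 0.38, interval -0.58 to 1.14). Cacnb1 was at 0.09 and -0.56, with a fitted difference of -0.24 (SE 0.39, interval -1.11 to 0.63). Ncald was at 0.08 and 0.0033 and Prkca at -0.0033 and 0.03, with fitted differences of 0.04 and 0.01. The experiment 2 values of Ncald and Prkca and the experiment 1 value of Prkca changed sign with the scaling. None passed (limma, adjusted p = 0.998 for each), with 0 calls (0%) and 1 probe at an unadjusted p under 0.05. No member had ranges that did not overlap, against 9.11% of all probes. The neuronal marker sum was 1.12 to 1.16 with nitroarginine and 1.49 to 2.62 under NMDA alone, the astrocyte sum was -0.23 to 0.28 against 0.32 to 0.41, and their part was not tested.

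Since the NMDA arrays enter both comparisons, a low NMDA array gives a lower NMDA minus control and a higher inhibitor minus NMDA at once. Set against control instead, NMDA with nitroarginine was at -0.25 for Hpca, -0.34 for Ncald, -0.25 for Prkca and 0.14 for Cacnb1 (SE 0.26 to 0.39; limma, adjusted p = 1 for each). NMDA with PD98059 against control was at -0.37 for Hpca, 0.32 for Ncald, -0.23 for Prkca and 0.02 for Cacnb1 (SE 0.26 to 0.39; limma, adjusted p = 0.999 for each). Over the whole array there were 0 calls in either, with 1 and 16 probes at an unadjusted p under 0.05. PD98059 and nitroarginine were never on arrays of the same set.

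**Figure D3:**
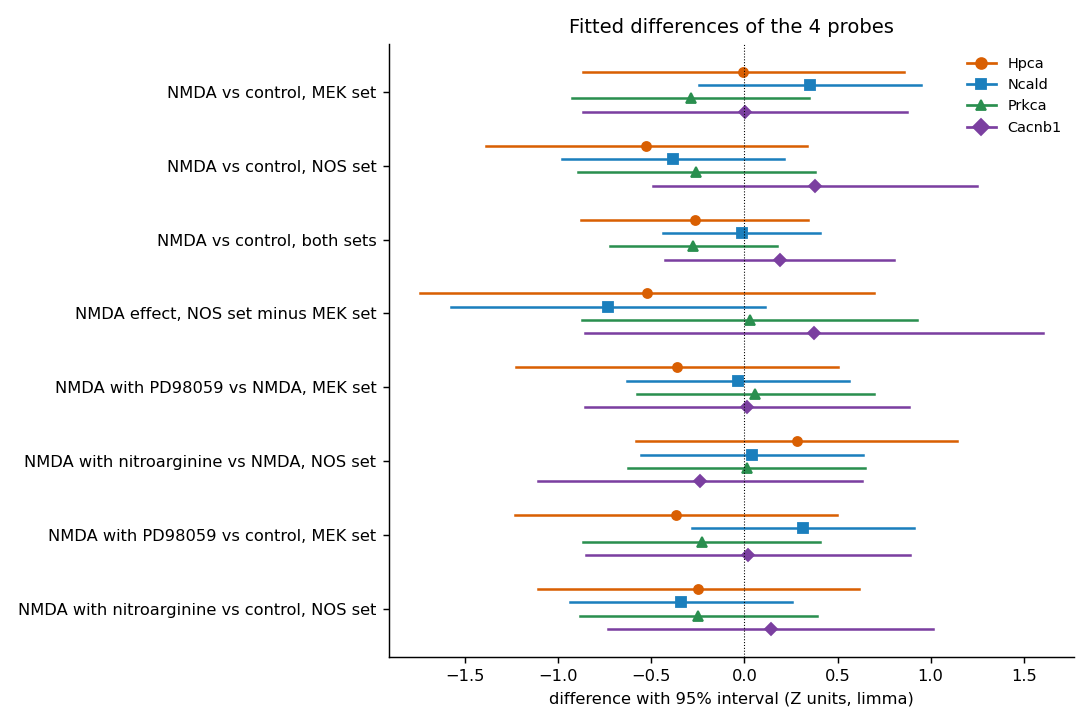
Fitted difference in Z units (x axis) with its 95% interval (line) for each of the 4 probes in the 8 comparisons among rat arrays (y axis), from the limma fit to 12 arrays. This fit carries no block for experiment. Every interval includes 0, and the one that reaches least past it is that of Ncald for the difference between the sets, -1.58 to 0.11. With experiment as a block, that interval was -1.39 to -0.08. The block also gave -0.95 to -0.10 for Hpca under NMDA against control in the NOS set.

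The nNOS knockout was compared with its wild-type littermate, with 1 array each and so no test. Cacnb1 was higher in the knockout by 0.40 Z units, and 98.4% of probes had a lower difference. Prkca was lower by -0.24, with 8.94% of probes below it. The 24 nearest probes had medians of 0.08 around Cacnb1 and 0.05 around Prkca. Hpca differed by -0.08 and Ncald by 0.05, against an SD of 0.199 over all probes. No member (0 of 4) reached a difference of 0.5 units in size, which 2.34% of all probes did. The probes are annotated to rat genes and the tissue was mouse, so how well each probe takes up the mouse transcript is unknown. Levels in cortex and in culture also differ in species and age, which cannot be told apart.

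Of 209 other genes of calcium signalling listed for comparison, 7 were on the array, on 8 probes. They were Anxa1, a calcium-dependent phospholipid-binding protein, Camkv, a kinase-like vesicle protein that binds calmodulin, Dgkz, a diacylglycerol kinase, Dlg4, the postsynaptic scaffold PSD-95, Mef2d, a transcription factor that responds to calcium, Sparc, a secreted calcium-binding glycoprotein, and Ywhae, a 14-3-3 protein, with 2 probes. No other neuronal calcium sensor, calcium channel subunit or protein kinase C isoform from the lists was there. In each of the 8 comparisons 0 of the 8 probes passed (limma).

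Under NMDA, 4 of the 8 probes were higher and 4 lower than control in the MEK set (median 0.03, against 0.0045 over all probes). The NOS set also had 4 and 4 (median 0.0065, against 0.02). Of all probes, 50.5% were higher in the MEK set and 54.3% in the NOS set. The largest differences in the MEK set were those of Mef2d, at -0.71 (SE 0.25), and Sparc, at 0.40 (SE 0.26). Mef2d was lower by -0.84 and -0.59 in MEK experiments 1 and 2, by -0.26 in NOS experiment 1, and was at 0.03 in NOS experiment 2. In the NOS set the largest were Anxa1 at -0.38 (SE 0.54) and a Ywhae probe at 0.23 (SE 0.47). Anxa1 went opposite ways between experiments, at 0.27 and -1.03 in NOS experiments 1 and 2. That Ywhae probe was higher in all 4 experiments, by 0.17 to 0.25, and Dlg4 lower in all 4, by -0.17 to -0.04.

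Over both sets the largest differences under NMDA were Mef2d at -0.41 (SE 0.18) and Anxa1 at -0.32 (SE 0.38), and between the sets Mef2d at 0.60 (SE 0.36) and Camkv at 0.39 (SE 0.40). With PD98059 against NMDA, 5 of 8 were higher, against 70.8% of all probes (median 0.05, against 0.02). The largest were Camkv at -0.15 and Anxa1 at 0.10. With nitroarginine against NMDA, 3 of 8 were higher, against 46.9% of all probes (median -0.04, against -0.01). The largest were Anxa1 at 0.31 and the first Ywhae probe at -0.18. The second Ywhae probe was at 0.04. Against control, the largest were Mef2d at -0.66 and Camkv at -0.35 with PD98059, and Dlg4 at -0.26 and the second Ywhae probe at 0.18 with nitroarginine. In the knockout, Mef2d was at -0.48 and Dlg4 at -0.13.

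**Figure D4:**
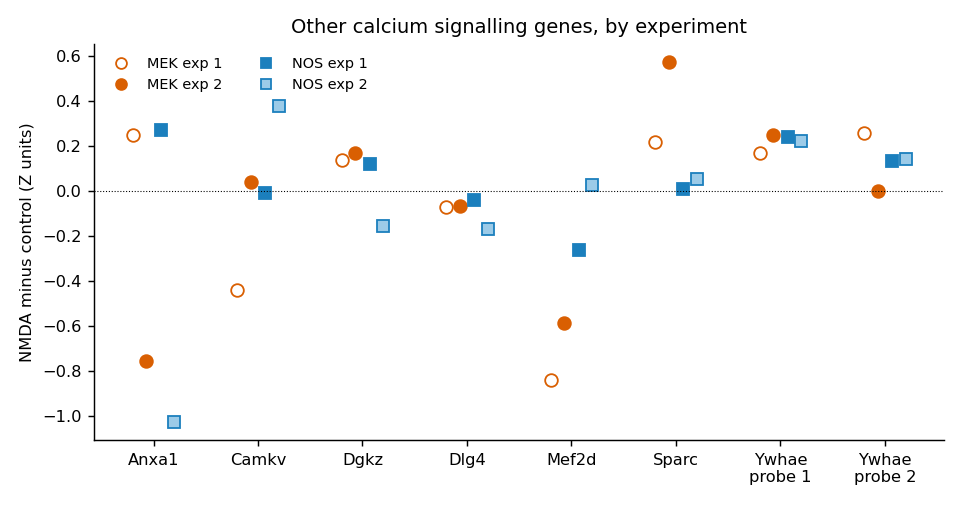
NMDA minus control within each experiment in Z units (y axis) for the 8 probes of other calcium signalling genes (x axis); circles are the MEK set, squares the NOS set, and the open circle uses the moved control. Mef2d runs from -0.84 to 0.03 and Anxa1 from -1.03 to 0.27, while the first Ywhae probe stays between 0.17 and 0.25.

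Likeness between profiles was measured over the 12 rat arrays as the root mean square difference after each probe's mean within each experiment was subtracted, against 382 other named probes. The probes nearest to Ncald were Rfc1, a subunit of the clamp loader of DNA replication (0.056 Z units), Lgalsl (0.058) and Slc3a2, the heavy chain of amino acid transporters (0.09), against a median of 0.261. Rfc1 and Lgalsl are probes 908 and 906 in the file's order and Ncald is probe 934. Nearest to Prkca were Pqbp1 (0.041), Zbtb7a (0.049) and Rbbp7 (0.067; median 0.243). Nearest to Cacnb1 were Eef1a1, a translation elongation factor (0.064), Cers5, a ceramide synthase (0.064), and Dync1h1, the dynein heavy chain (0.07; median 0.201). Hpca had no neighbour as close, with Rmnd5b (0.126), Hspa8, a constitutive chaperone (0.14), and Sfrs2, a splicing factor (0.147; median 0.283). Without MEK experiment 1, which holds the moved array, 0 of these 3 stayed among the 3 nearest to Hpca, 1 for Ncald, and 2 each for Prkca and Cacnb1.

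The likeness of the 2 calcium sensors depended on MEK experiment 1. Over 12 arrays the difference between Hpca and Ncald was 0.252, against a median of 0.283 over all named probes, and without that experiment it was 0.127, where Ncald ranked 17 of 382 among the probes nearest to Hpca. Ncald and Prkca differed by 0.298 over 12 arrays, where Prkca ranked 252 among the probes nearest to Ncald. Without MEK experiment 1 they differed by 0.05, with a rank of 2. Cacnb1 was far from the other 3 in both cases, with ranks of 276 to 352 of 382 over 12 arrays and 354 to 372 without that experiment.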

How the data were processed

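The deposited values are scores. Each column has a mean near 0 and most an SD near 1, so the authors had transformed each array to Z-scores. How they did so, the scale before it and any background correction or filter are not given in the sources used here. Brightness was taken as the direction. A Z-score removes any change common to all probes. The number of arrays limits the precision. The tests had been designed for log2 or normalized values and were run on the scores as they stand.

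Groups and experiment numbers came from the labels. The members and lists were chosen with earlier results of these data known. The column of the MEK control of experiment 1 was moved down by 1 row, which leaves probe 1 without a value there. Means of 6 groups were fitted to the 12 rat arrays with limma 3.58.1 in R 4.3.3 (6 residual degrees of freedom, two-sided tests, Benjamini-Hochberg adjustment over 1152 probes, threshold 0.05). The fit was tested on simulated data, which for the fit without a block held no gap between experiments. That test therefore says nothing on how the fit handles such gaps. Mouse arrays stayed out. Genes were named from GEO's platform annotation. Of 384 probes with 1 symbol, 362 matched the rat gene table, including all 4 members. Another 6 probes had several symbols and 762 had none. Named genes were the members, the 2 largest differences per comparison from the calcium signalling lists, and the 3 nearest profiles per member. Other steps used Python 3.11.15, numpy 2.4.6, pandas 2.3.3 and matplotlib 3.10.9.

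Pairing comes from the labels, which give a shared experiment number to the 3 arrays of an experiment. As a check, r between such arrays, after each group's mean was subtracted, was 0.874 to 0.930 (NOS set) or -0.145 to 0.073 (MEK set). Experiment as a block, other scalings, a running median, other moderation, a filter on dim probes and arrays left out were tried as alternatives.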

Additional observations from a re-analysis of the deposited data

Results flagged for a closer look

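Ncald, neurocalcin delta, had NMDA differences of opposite sign in the sets, on Z-scores that were not rescaled. It was higher under NMDA in both MEK experiments, by 0.68 and 0.02 Z units, and lower in both NOS experiments, by -0.11 and -0.65. The interaction was -0.73 and did not pass (limma, adjusted p = 0.999). The value of 0.68 uses the moved control column, and the value of 0.02 turned to -0.20 with quantile normalization. With the running median removed, the NMDA difference was 0.33 in the MEK set and 0.051 in the NOS set, of the same sign. Without the moved control the interaction was -0.43.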

How the results depend on the processing

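Over 8 comparisons and 24 alternatives among the rat arrays, 744 values of the members were computed. Of these, 666 kept the sign given in the report, 78 had the other sign, and 0 passed the threshold (lowest adjusted p 0.139 in limma). Experiment as a replicate block changed no call, with 0 calls in each of the 8 comparisons, but it narrowed the members' intervals. Hpca was then at -0.53 for NMDA against control in the NOS set (SE 0.19, interval -0.95 to -0.10, adjusted p = 0.688 in limma). Ncald was then at -0.73 for the difference between the sets (SE 0.29, interval -1.39 to -0.08, adjusted p = 0.555 in limma). Both of these intervals leave out 0. With the block, 166 probes (14.4%) had an unadjusted p under 0.05 (limma) for NMDA against control in the MEK set, against 16 (1.39%) without it. Over both sets the counts were 128 (11.1%) and 11 (0.955%), and for PD98059 against control 148 (12.8%) and 16 (1.39%). For NMDA against control in the NOS set they were 57 (4.95%) and 2 (0.174%), and for PD98059 against NMDA 5 (0.434%) and 0 (0%). Comparisons with MEK controls include the moved column. The filter on dim probes left out Hpca and Prkca. With the column as deposited, Hpca was at 0.029 for NMDA against control in the MEK set, Cacnb1 was at -0.18 for NMDA against control in the MEK set and -0.16 for PD98059 against control, Prkca was at 0.025 for PD98059 against control and -0.23 for the difference between the sets, and Ncald was at 0.043 for NMDA over both sets. With median centring, Hpca was at 0.077 for NMDA against control in the MEK set, Ncald was at -0.006 for nitroarginine against NMDA and 0.063 for NMDA over both sets, and Prkca was at -0.037 for nitroarginine against NMDA. With quantile normalization, Hpca was at 0.061 for NMDA against control in the MEK set, Cacnb1 was at -0.0008 for NMDA against control in the MEK set, -0.0068 for PD98059 against NMDA and -0.0076 for PD98059 against control, Ncald was at -0.019 for nitroarginine against NMDA, and Prkca was at -0.037 for nitroarginine against NMDA and -0.081 for the difference between the sets. With arrays scaled to an SD of 1, Cacnb1 was at -0.0071 for NMDA against control in the MEK set, and Prkca was at -0.0089 for nitroarginine against NMDA. With the running median removed, Hpca was at 0.067 for NMDA against control in the MEK set, Prkca was at 0.029 for NMDA against control in the MEK set, 0.10 for PD98059 against control, 0.016 for NMDA against control in the NOS set, 0.038 for nitroarginine against control, 0.023 for NMDA over both sets and -0.013 for the difference between the sets, Ncald was at 0.051 for NMDA against control in the NOS set, -0.22 for nitroarginine against NMDA and 0.19 for NMDA over both sets, and Cacnb1 was at 0.025 for nitroarginine against NMDA. With NOS experiment 2 left out, Prkca was at 0.018 for NMDA against control in the NOS set, -0.0033 for nitroarginine against NMDA and 0.015 for nitroarginine against control, Cacnb1 was at 0.085 for nitroarginine against NMDA, and Ncald was at 0.12 for NMDA over both sets. With experiment as a block and the moved control left out, Hpca was at 0.032 for NMDA against control in the MEK set, and Prkca was at 0.049 for NMDA against control in the MEK set, 0.11 for PD98059 against control and -0.31 for the difference between the sets. With the moved control and NOS experiment 2 both left out, a setting chosen after seeing the data, Prkca was at 0.075 for NMDA against control in the MEK set, 0.13 for PD98059 against control, 0.018 for NMDA against control in the NOS set, -0.0033 for nitroarginine against NMDA, 0.015 for nitroarginine against control, 0.047 for NMDA over both sets and -0.057 for the difference between the sets, and Cacnb1 was at 0.085 for nitroarginine against NMDA and -0.13 for the difference between the sets. With both left out, limma called 82 probes for NMDA against control in the MEK set (7 higher, 75 lower) and 76 for PD98059 against control (12 higher, 64 lower), none of them a member. That setting left 1 MEK control array, from experiment 2, against NMDA and PD98059 arrays of both experiments. Each NOS group was left with 1 array. Its 2 residual degrees of freedom came only from the pairs of MEK NMDA and MEK PD98059 arrays. The calls were out of 1152 probes tested. The cause of the changes in sign and in calls was not tested. Leaving out each array in turn gave 0 to 1 calls for NMDA against control in the MEK set, PD98059 against control, NMDA over both sets and the difference between the sets, and members' signs changed as follows; these fits carry no block, so an array left out of the NOS set brings in the gap between its experiments. Hpca ran from -0.075 to 0.063 for NMDA against control in the MEK set, -1.08 to 0.023 for NMDA against control in the NOS set, -0.072 to 0.63 for nitroarginine against NMDA, -0.80 to 0.30 for nitroarginine against control, -0.54 to 0.0085 for NMDA over both sets and -1.07 to 0.029 for the difference between the sets. Prkca ran from -0.65 to 0.075 for NMDA against control in the MEK set, -0.59 to 0.13 for PD98059 against control, -0.15 to 0.17 for nitroarginine against NMDA and -0.34 to 0.39 for the difference between the sets. Cacnb1 ran from -0.13 to 0.14 for NMDA against control in the MEK set, -0.01 to 0.0403 for PD98059 against NMDA, -0.12 to 0.15 for PD98059 against control, -0.13 to 0.89 for NMDA against control in the NOS set, -0.70 to 0.22 for nitroarginine against NMDA, -0.37 to 0.65 for nitroarginine against control, -0.064 to 0.44 for NMDA over both sets and -0.14 to 0.88 for the difference between the sets. Ncald ran from -0.10 to 0.19 for nitroarginine against NMDA and -0.17 to 0.14 for NMDA over both sets. In the knockout comparison, removing the running median took Ncald from 0.05 to -0.24, Hpca from -0.08 to 0.011 and Prkca from -0.24 to -0.37.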
